A study of Homo sapiens with 12 samples.

Results

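Collagen is the main fibre-forming protein of the extracellular matrix, and the genes followed here were the collagen chains that HLE cells express together with the enzymes and helper proteins that modify, fold, process and cross-link them. HLE is an established line from a human hepatocellular carcinoma. Members were the genes with the symbol of a collagen chain, and LOX, LOXL1, LOXL2, LOXL3, LOXL4, P4HA2, P4HA3, PLOD1, PLOD2, PLOD3, SERPINH1, BMP1, PCOLCE and ADAMTS2, that reached 1 CPM (reads per 1000000 reads on genes) in at least 2 of 12 libraries. Of 58 such symbols, 44 for chains and 14 for enzymes and helpers, 35 passed, among 13515 genes of the whole table that did. They were 22 chains and 13 enzymes and helpers, LOXL3 being the enzyme that fell short. Every member reached 1 CPM in at least 9 libraries, so none entered through a lone group: the closest inside were COL11A2 and COL17A1 with 9 libraries each, and the closest outside was COL24A1, at 1.05 CPM in 1 library. COL6A3, the usual partner of COL6A1 and COL6A2, was among the 23 that stayed below, and COL6A5, COL22A1, COL23A1 and COL25A1 were listed at 0 in every library.

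Cells received a control siRNA (siCtrl), siRNA against both YAP and TAZ (siY/T), the transcriptional co-activators restrained by the Hippo pathway, or siRNA against ATF4 (siATF4), a transcription factor of the integrated stress response. Each was cultured in DMSO, the vehicle, or in Sorafenib (Srf in the labels), a multikinase inhibitor given at 5 µM according to the labels, which gave 6 groups of 2 libraries of poly(A) RNA. The study's methods describe another dose and more replicates than the labels do, and the labels give no time. All groups are this 1 line after a transient knockdown. The study's methods describe biological replicates, though with another number a group and another instrument than the labels, and the labels do not say whether the 2 libraries of a group came from separate cultures. The p-values measure the spread between these libraries, which may be technical. RNA came from whole cultures, in which fewer cells of a kind and less RNA per cell cannot be told apart.

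Collagen chains are made in the endoplasmic reticulum, where prolyl and lysyl hydroxylases modify them and the chaperone SERPINH1 (HSP47) holds the folded triple helix. Fibrillar chains (types I, III, V, XI, XXVII) leave the cell as procollagens, whose end pieces are cut off by ADAMTS2 and BMP1, the latter aided by PCOLCE, before fibrils form and are cross-linked by LOX and the LOX-like oxidases. Network-forming chains (types IV and VIII), the beaded filaments of type VI, the fibril-associated types IX, XII, XVI and XXI, the anchoring fibril type VII, the transmembrane type XVII and the multiplexin type XVIII build other structures. In liver, most fibrillar collagen is made by stellate cells and fibroblasts, while carcinoma lines vary in how much they make.

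Each library held between 41408348 and 53619732 reads on genes, so 1 read stood for 0.0186 to 0.0241 CPM. Libraries of a group differed with an SD of 0.110 to 0.190 over genes on the log2 scale, most in siY/T DMSO. The targeted genes were lower in every library of their knockdown. YAP1 lay at 46.6 to 57.7 CPM in the 4 siY/T libraries against 235.6 to 279.9 CPM in the other 8, and WWTR1 (TAZ) at 49.3 to 68.6 against 104.2 to 173.2 CPM. ATF4 lay at 84.5 to 100.7 CPM in the 4 siATF4 libraries against 196.8 to 491.8 CPM elsewhere. The targets also differed outside their own knockdown. WWTR1 lay at 107.1 and 104.2 CPM in siATF4 against 169.8 and 173.2 CPM in siCtrl DMSO libraries. In Sorafenib WWTR1 lay at 144.7 and 136 against 153.7 and 145.4 CPM. ATF4 lay at 206.6 and 196.8 CPM in siY/T against 248.3 and 248.6 CPM in siCtrl DMSO libraries. In Sorafenib ATF4 lay at 317 and 313.7 against 483.8 and 491.8 CPM. The part of these shifts in the collagen changes was not tested. Of 8 hepatocyte markers, 6 (ALB, AFP, APOA1, APOB, TTR and HNF4A) lay under 0.2 CPM in every library of this line, labelled as a liver carcinoma. The other 2 were FGB, at 368 and 431 CPM in siCtrl DMSO libraries, and SERPINA1, at no more than 2.32 CPM in any library. The list summed to 368.1 to 430.9 CPM in siCtrl DMSO and 68.6 to 72.3 CPM in siATF4 DMSO cells, nearly all of it FGB. The 6 fibroblast and stellate cell markers summed to 43.0 to 46.9 CPM in siCtrl DMSO, 7.92 to 8.94 CPM in siATF4 DMSO, 81.5 to 81.6 CPM in siCtrl Sorafenib and 18.6 to 20.3 CPM in siATF4 Sorafenib cells, nearly all of it PDGFRB, with DCN and DES under 0.2 CPM throughout. In siY/T cells the sum was 44.9 to 45.6 CPM in DMSO and 71.4 to 77.9 CPM in Sorafenib. Of the 3 markers tested, siY/T raised 2 in each medium, ACTA2 and PDGFRA, both of them low. Over all genes tested siY/T raised 11% in DMSO and 6.11% in Sorafenib. In DMSO ACTA2 went from 0.597 and 0.577 CPM in siCtrl to 2.01 and 2.13 CPM, and PDGFRA from 0.336 and 0.355 to 1.29 and 1.28 CPM. PDGFRA reached 1 CPM in siY/T libraries only, so it passed the filter through them and its rise is partly built into the selection. The sum moved with the collagen genes below in the siATF4 and Sorafenib comparisons, and the part of these markers in their changes was not tested. The 5 epithelial markers summed to 3223 to 3333 CPM in siCtrl, 978 to 1025 CPM in siY/T and 2140 to 2256 CPM in siATF4 DMSO cells, and to 3172 to 3300, 1301 to 1339 and 2591 to 2792 CPM in Sorafenib. Most of that sum was KRT8 and KRT18, while CDH1 was raised by siY/T in DMSO (log2 change 1.02). CDH1 was also raised by Sorafenib (2.37) and lowered by siATF4 (-1.23 in DMSO and -3.14 in Sorafenib). KRT18 did not fall with siATF4, at 1047 and 1017 CPM in siCtrl and 1011 and 1041 CPM in siATF4 DMSO libraries. In Sorafenib KRT18 lay at 707 and 735 CPM in siCtrl and 1015 and 1089 CPM in siATF4 libraries. The 5 mesenchymal markers, most of whose sum was VIM, reached 2864 to 2968 CPM in siCtrl, 3047 to 3355 in siY/T and 2586 to 2680 in siATF4 DMSO cells. In Sorafenib these sums were 3637 to 3657, 3154 to 3239 and 2671 to 2678 CPM. The endothelial markers summed to at most 0.262 CPM, and of the 2 leukocyte markers PTPRC lay under 0.2 CPM everywhere while CD68 was raised by siATF4.

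The collagen output of these cells was uneven. Per kilobase of the main transcript, which allows levels of different genes to be compared, COL18A1 stood first in siCtrl DMSO cells at 189 ± 15.2 CPM per kb (mean ± SD, n = 2), followed by LOXL2 at 134 ± 6.98, COL1A2 at 109 ± 3.98, SERPINH1 at 74.6 ± 4.89, COL6A2 at 69.3 ± 5.47 and COL6A1 at 58.9 ± 6.26 CPM per kb. Neighbours in this order whose libraries overlapped were SERPINH1 with COL6A2, COL4A1 with ADAMTS2, P4HA2 with COL4A5, COL4A5 with COL3A1, LOXL1 with COL1A1, COL9A3 with LOX, and LOX with COL11A1. The other neighbours did not overlap. COL1A1, at 4.85 ± 0.265 CPM per kb, ranked 20th although COL1A2 ranked 3rd. COL11A2 came last at 0.177 ± 0.0452 CPM per kb. Exons of COL18A1 share bases with the opposite-strand gene SLC19A1 (28.9% of the COL18A1 transcript, SLC19A1 itself at 33.9 to 70.8 CPM), and the strand setting of the counting is not given in the sources used here, so some COL18A1 reads could belong to SLC19A1. The same holds for COL9A3, which shares 6.21% of its transcript with TCFL5 (16.8 to 28.5 CPM), and for LOX, which shares 2.72% with SRFBP1 (19.5 to 37.0 CPM), both of them on the other strand and above the member itself.

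In hg19 the chain genes lie both in pairs and apart. COL1A1 (chr17:48261462-48278993) and COL1A2 (chr7:94024207-94060539), which encode the chains of type I collagen, sit on different chromosomes. COL3A1 (chr2:189839099-189877472) and COL5A2 (chr2:189896624-190090038) are neighbours that point towards each other. COL4A1 (chr13:110801310-110959504) and COL4A2 (chr13:110958159-111165556) start beside each other on opposite strands, as do COL4A5 (chrX:107683068-107940775) and COL4A6 (chrX:107398837-107682727), while COL6A1 (chr21:47401684-47424964) and COL6A2 (chr21:47518026-47552762) follow each other on the same strand.

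Start regions from RefSeq (GRCh38.p14) were found for 25 of the 35 members and are shown for COL4A2, COL4A6, LOX and PLOD2, which siY/T lowered in DMSO. The stretch of COL4A2 is also that of COL4A1, whose log2 change of -0.404 was not called. COL4A6 was added with its sequence after its values were seen. Each line runs 5′ to 3′ on the strand of the gene and ends at the base before its start, except the first, which is the stretch between the starts of COL4A1 and COL4A2 read on the strand of COL4A2. Capitals mark the letters CCAAT or, read from the other strand, ATTGG. The stretches are chr13:110307158-110307283 (plus strand), chrX:108439459-108439618, chr5:122078260-122078419 and chr3:146161185-146161344 (all minus strand).
COL4A1 and COL4A2: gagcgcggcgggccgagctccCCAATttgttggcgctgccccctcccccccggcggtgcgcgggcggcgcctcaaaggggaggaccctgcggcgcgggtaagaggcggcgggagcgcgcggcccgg
COL4A6: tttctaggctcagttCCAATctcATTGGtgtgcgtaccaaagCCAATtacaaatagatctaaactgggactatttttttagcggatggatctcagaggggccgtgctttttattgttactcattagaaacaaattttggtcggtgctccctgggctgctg
LOX: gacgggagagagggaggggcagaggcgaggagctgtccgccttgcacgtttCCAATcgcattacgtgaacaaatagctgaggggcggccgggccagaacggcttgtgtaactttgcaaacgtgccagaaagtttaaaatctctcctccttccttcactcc
PLOD2: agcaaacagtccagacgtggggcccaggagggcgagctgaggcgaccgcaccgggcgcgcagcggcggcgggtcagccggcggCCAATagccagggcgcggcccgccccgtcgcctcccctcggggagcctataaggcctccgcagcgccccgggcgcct
The match in the first stretch lay 105 bases before the start of COL4A2 and 26 bases before that of COL4A1. A match lay 109 bases before the start of LOX and 77 before that of PLOD2, and COL4A6 held 3, at 145, 137 and 118 bases. Within the 250 bases before the start, on either strand, CCAAT was found in 9 of 25 members (COL4A1, COL4A2, COL4A5, COL4A6, COL11A1, COL17A1, LOX, P4HA2 and PLOD2), against 35.7% of 10711 tested genes with an entry. The matches of COL4A5, 247 and 239 bases before its start, are the COL4A6 pair at 145 and 137 bases read from the other gene, and the log2 change of COL4A5 with siY/T in DMSO was 0.101. The letters CCAAT were in 5 of the 6 members with an entry that siY/T lowered in DMSO and in 0 of the 8 it raised, a count made after the values were seen and without a test. The lowered member without these letters was ADAMTS2, whose stretch, like that of COL17A1 and of the raised members, is not shown above. These searches used the first start listed for each gene, and 7 members have several. With every listed start, CCAAT was in 11 of 25 members (41.9% of tested genes), the added ones being COL11A2 and SERPINH1, and in 1 of the 8 raised. For LOX 1 of 3 starts and for COL4A6 1 of 2 held it. TATAAA was found in 3 members (5.17% of tested genes). GGAATG, the letters of the TEAD motif, was found only in COL12A1 (9.37%), and the letters TGATGNAA of composite ATF4 sites (1.43%), TGACGTCA (2.94%) and TGANTCA (3.68%) were in 0 members. With every start, GGAATG was also found in COL11A2, TATAAA in COL18A1 and TGATGNAA in COL21A1. No match says only that these letters are not in this window. Not searched were the 10 members without an entry: BMP1, COL1A1, COL1A2, COL3A1, COL5A2, COL6A1, COL8A1, COL9A3, LOXL2 and P4HA3. Of the 17 members that siATF4 lowered in both media, described below, 10 had an entry.

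Loss of ATF4 lowered most collagen chains. In DMSO, 18 members were lowered and 2 raised by siATF4 against siCtrl, calls having been made for 22.7% of all 13515 tested genes. Lowered were 51.4% of members against 14.1% of all genes, and raised 5.71% against 8.56%. A call here means a limma adjusted p (Benjamini-Hochberg over all tested genes) under 0.05 with a log2 change of at least 0.58, and changes are on the log2(CPM + 0.5) scale, which understates those of low genes. The median log2 change was -0.68 over the members and -0.0013 over all genes tested. Among the chains, 14 of 22 were lowered, namely 6 of 8 fibrillar chains, 3 of 4 basement membrane chains, 3 of 4 fibril-associated chains, COL7A1 and COL8A1. Among the enzymes and helpers, 4 of 13 were lowered (LOXL1, LOXL2, LOXL4 and ADAMTS2) and 2 raised (LOX and PCOLCE). The 2 chains of type VI, the prolyl and lysyl hydroxylases, SERPINH1, COL12A1 and COL18A1 did not reach the threshold. PCOLCE fell out of the calls without siATF4 DMSO replicate 1, at a log2 change of 0.55, and with a pseudocount of 1, at 0.57, and COL6A2 entered them at 0.58 without siCtrl DMSO replicate 1.

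In Sorafenib, where 28.9% of all tested genes were called, siATF4 lowered 20 members and raised 2, or 57.1% and 5.71% of the members against 18.7% and 10.3% of all genes, with a median log2 change of -0.75 against -0.0082. Lowered chains numbered 15 of 22, with 7 of 8 fibrillar chains, and COL17A1 was raised. Of the enzymes and helpers, LOXL1, LOXL2, LOXL4, ADAMTS2 and BMP1 were lowered and LOX was raised. The siATF4 comparisons in DMSO and in Sorafenib share no library, and 17 members were lowered in both, which is 94.4% of those lowered in DMSO and 85.0% of those lowered in Sorafenib. The same shares over all genes tested were not computed, so this overlap is not read as particular to the members. COL4A1 was called in DMSO and not in Sorafenib, and COL18A1, COL27A1 and BMP1 the other way round. COL18A1 lay at the threshold and was lost without siCtrl Sorafenib replicate 2 (log2 change -0.57) or siATF4 Sorafenib replicate 1 (-0.577) and with TMM scaling (-0.56). Among all genes, the share of calls that were lowered was 64.6% as reported and 51.5% with quantile normalization.

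Loss of YAP and TAZ in DMSO moved members both ways. It lowered 6 (COL4A2, COL4A6, COL17A1, LOX, PLOD2 and ADAMTS2) and raised 11 (COL1A1, COL1A2, COL5A1, COL16A1, COL21A1, LOXL1, LOXL4, SERPINH1, PLOD1, BMP1 and PCOLCE), or 17.1% and 31.4% of the members against 3.61% and 11% of all genes tested (14.6% in either direction). The median log2 change was 0.28 over the members and 0.069 over all genes tested. Of the basement membrane chains 2 of 4 were lowered, and of the fibrillar chains 3 of 8 were raised. Calls at the threshold depended on 1 library: COL4A2 was lost without siY/T DMSO replicate 2 (-0.51), PCOLCE (0.57) and PLOD1 (0.579) without siY/T DMSO replicate 1 and ADAMTS2 (-0.56) without siCtrl DMSO replicate 1, while COL18A1 entered without siCtrl DMSO replicate 1 (0.62) and COL12A1 without siY/T DMSO replicate 2 (-0.65). Of all genes called, 24.7% were lowered as reported, 35.8% with TMM scaling, which dropped PLOD1 (0.54) and PCOLCE (0.55), and 43% with quantile normalization, which dropped COL5A1 (0.55), LOXL4 (0.52) and PCOLCE (0.43).

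In Sorafenib, 7 members were called with siY/T, 3 lowered (COL4A6, LOX and ADAMTS2) and 4 raised (COL1A2, COL21A1, COL27A1 and SERPINH1). These are 8.57% and 11.4% of the members against 3.84% and 6.11% of all genes tested (9.95% in either direction), and the median log2 change was 0.021 against 0.053 over all genes. COL1A2 sat just above the threshold, and its log2 change was 0.56 with TMM scaling and 0.55 with edgeR. COL17A1 entered without siCtrl Sorafenib replicate 2 (-0.67) or siY/T Sorafenib replicate 1 (-0.64), and COL11A1 without the latter (0.62). COL17A1 also entered with edgeR (-0.90), DESeq2 (-0.90) and a pseudocount of 0.1 (-0.77). P4HA3 entered as lowered with edgeR (-0.65), DESeq2 (-0.65), quantile normalization (-0.61) and a pseudocount of 0.1 (-0.58).

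Sorafenib itself, in siCtrl cells, raised 13 members and lowered 1, PLOD2. Raised members made up 37.1% of the list against 12.3% of all genes tested and lowered ones 2.86% against 5.15% (17.5% in either direction), and the median log2 change was 0.48 against 0.052. The raised chains were COL4A5, COL5A1, COL7A1, COL9A3, COL16A1, COL18A1, COL21A1 and COL27A1, and the raised enzymes were LOXL1, LOXL2, LOXL4, ADAMTS2 and BMP1. COL1A1 and COL1A2 had log2 changes of 0.50 and 0.51 and were not called. Without siCtrl DMSO replicate 2, COL7A1 (0.53), COL16A1 (0.57), LOXL2 (0.57) and PLOD2 (-0.57) fell below the threshold, COL7A1 (0.55) and PLOD2 (-0.50) also did so without siCtrl Sorafenib replicate 2, COL11A2 entered without siCtrl DMSO replicate 1 (0.67) and COL17A1 without siCtrl Sorafenib replicate 1 (-0.595). Of all genes called, 29.5% were lowered as reported, 39.3% with TMM scaling and 47.7% with quantile normalization, which dropped COL7A1 (0.36), COL9A3 (0.43), COL16A1 (0.38), COL27A1 (0.401) and PLOD2 (-0.53). This comparison and both siRNA comparisons share siCtrl libraries, so their values are given side by side and no overlap is counted.

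**Figure D1:**
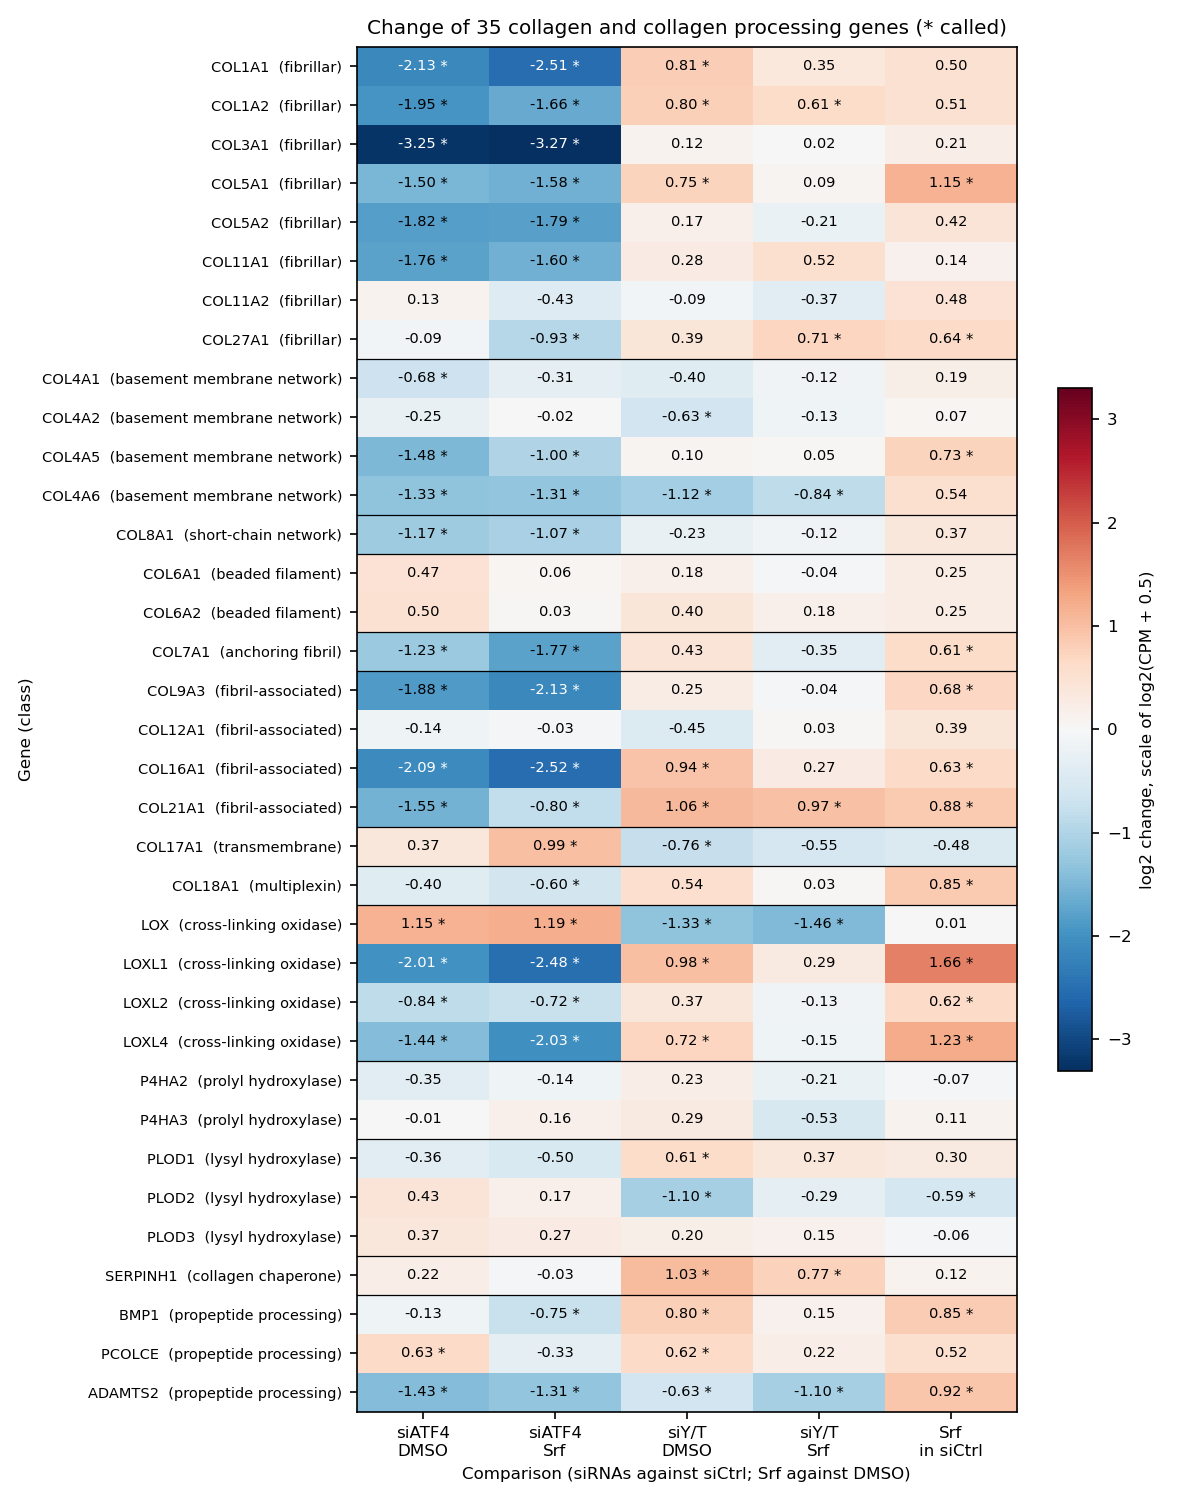
Fitted log2 changes of the 35 members in 5 comparisons, grouped by class, as colours and printed values, with an asterisk on each change that was called (limma adjusted p under 0.05 and a log2 change of at least 0.58). In the siATF4 columns 18 members in DMSO and 20 in Sorafenib were lowered, and in the Sorafenib column 13 were raised.

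Type I collagen, the commonest fibrillar collagen, is built from COL1A1 and COL1A2 chains. COL1A1 measured 27.6 and 29.8 CPM in siCtrl, 50.7 and 50.3 CPM in siY/T and 6.92 and 5.49 CPM in siATF4 cells in DMSO. In Sorafenib COL1A1 measured 39.8 and 41.96 CPM in siCtrl, 52.7 and 51.7 CPM in siY/T and 7.05 and 6.51 CPM in siATF4 cells. Every siATF4 library lay below every other library, and the siY/T libraries stood above siCtrl in both media. The COL1A1 decrease with siATF4 was 4.38-fold in DMSO (log2 change -2.13, SE 0.0869, limma adjusted p = 3.06e-10) and 5.69-fold in Sorafenib (adjusted p = 6.05e-11), and siY/T raised it 1.75-fold in DMSO (adjusted p = 4.59e-06). COL1A2 measured 568 and 539 CPM in siCtrl, 980.1 and 945 CPM in siY/T and 153 and 134 CPM in siATF4 cells in DMSO. In Sorafenib COL1A2 measured 796 and 784 CPM in siCtrl, 1219.6 and 1186 CPM in siY/T and 257 and 243 CPM in siATF4 cells. COL1A2 thus followed the order of COL1A1, with siATF4 lowest and siY/T highest in both media and no overlap between groups. The COL1A2 decrease with siATF4 was 3.86-fold in DMSO (log2 change -1.95, SE 0.0567, limma adjusted p = 2.17e-11) and 3.16-fold in Sorafenib (adjusted p = 5.7e-11), and siY/T raised it 1.74-fold and 1.52-fold.

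Types III, V and XI co-assemble with or nucleate fibrils. COL3A1 measured 35.6 and 35.5 CPM in siCtrl, 36.5 and 40.8 CPM in siY/T and 3.09 and 3.53 CPM in siATF4 cells in DMSO. In Sorafenib COL3A1 measured 40.4 and 42.1 CPM in siCtrl, 39.9 and 43.95 CPM in siY/T and 3.91 and 3.72 CPM in siATF4 cells. The gap between siATF4 and the rest was the widest fall among the members, while siY/T libraries stayed close to siCtrl ones. The fall was 9.496-fold in DMSO (log2 change -3.25, SE 0.0779, limma adjusted p = 6.33e-12) and 9.68-fold in Sorafenib (adjusted p = 7.31e-12). For siY/T the log2 changes of COL3A1 were 0.12 and 0.021. COL5A1 measured 4.998 and 4.06 CPM in siCtrl, 7.84 and 7.95 CPM in siY/T and 1.22 and 1.33 CPM in siATF4 cells in DMSO and in Sorafenib 9.84 and 11.4 CPM in siCtrl, 10.9 and 11.7 CPM in siY/T and 3.36 and 3.103 CPM in siATF4 cells. COL5A1 was low in siCtrl DMSO cells, and Sorafenib lifted it beyond the siY/T DMSO libraries. Its log2 change was 1.15 with Sorafenib (SE 0.106, limma adjusted p = 9.38e-07) and -1.498 and -1.58 with siATF4. COL5A2 measured 183 and 177 CPM in siCtrl, 204 and 201 CPM in siY/T and 50.1 and 51.2 CPM in siATF4 cells in DMSO and in Sorafenib 247 and 237 CPM in siCtrl, 216 and 202 CPM in siY/T and 71.1 and 68.4 CPM in siATF4 cells. COL5A2 was far more abundant than COL5A1 and fell 3.54-fold with siATF4 in DMSO and 3.45-fold in Sorafenib (limma adjusted p = 6.94e-12 and 9.3e-12).

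COL11A1, a minor fibrillar chain of cartilage and of some carcinomas, measured 10.8 and 11.6 CPM in siCtrl, 12.04 and 15.5 CPM in siY/T and 3.04 and 2.85 CPM in siATF4 cells in DMSO. In Sorafenib COL11A1 measured 12.6 and 12.01 CPM in siCtrl, 16.6 and 19.2 CPM in siY/T and 3.64 and 3.83 CPM in siATF4 cells. The siATF4 libraries were the lowest in both media. Their log2 change was -1.76 in DMSO (SE 0.109, limma adjusted p = 1.43e-08) and -1.597 in Sorafenib, and siY/T gave 0.28 and 0.52, below the threshold. COL27A1, a short fibrillar chain, measured 4.92 and 5.13 CPM in siCtrl, 6.38 and 7.12 CPM in siY/T and 5.04 and 4.34 CPM in siATF4 cells in DMSO. In Sorafenib COL27A1 measured 8.08 and 8.18 CPM in siCtrl, 12.8 and 14.4 CPM in siY/T and 3.77 and 4.302 CPM in siATF4 cells. COL27A1 differed between the media: siATF4 left it near siCtrl in DMSO and below it in Sorafenib. The log2 changes with siATF4 were -0.094 in DMSO and -0.93 in Sorafenib (limma adjusted p = 1.77e-06), and their difference was -0.84 (SE 0.1400, adjusted p = 0.000467). COL11A2, the lowest member, had log2 changes between -0.43 and 0.48 in these 5 comparisons and was not called.

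**Figure D2:**
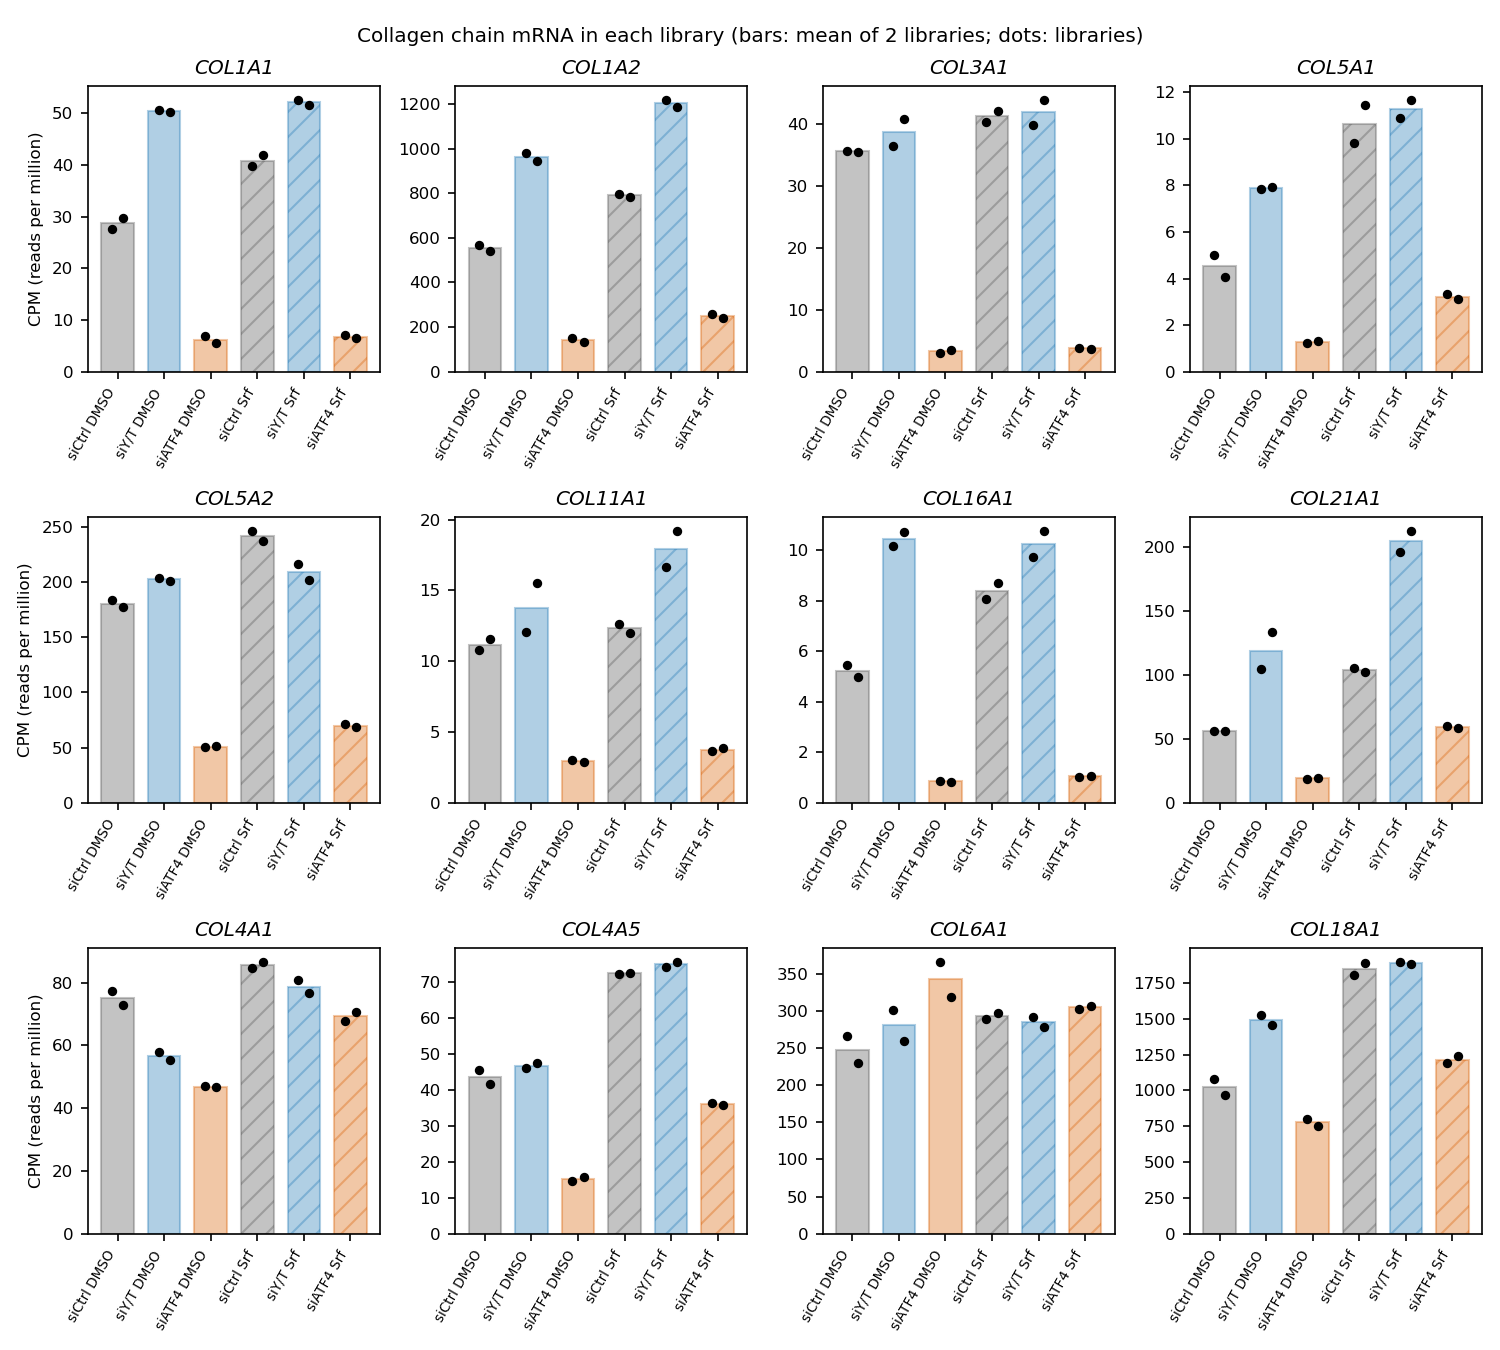
CPM of 12 collagen chains on linear axes from 0, with a bar for the mean of the 2 libraries of each group, a dot for each library and hatched bars for Sorafenib (Srf). The siATF4 bars are low for COL1A1, COL1A2 and COL3A1 in both media, where COL3A1 changed by -3.25 in DMSO and -3.27 in Sorafenib on the log2 scale.

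Fibril-associated chains sit on the surface of fibrils. COL16A1 measured 5.46 and 4.99 CPM in siCtrl, 10.2 and 10.7 CPM in siY/T and 0.879 and 0.812 CPM in siATF4 cells in DMSO. In Sorafenib COL16A1 measured 8.06 and 8.71 CPM in siCtrl, 9.71 and 10.8 CPM in siY/T and 1.02 and 1.07 CPM in siATF4 cells. In siATF4 cells COL16A1 stayed near 1 CPM, while siY/T libraries were above siCtrl ones. Its log2 change with siATF4 was -2.09 in DMSO (SE 0.0917, limma adjusted p = 5.78e-10) and -2.52 in Sorafenib, with siY/T 0.94 and 0.27, and with Sorafenib 0.63. COL9A3 measured 3.898 and 3.91 CPM in siCtrl, 4.62 and 4.85 CPM in siY/T and 0.643 and 0.753 CPM in siATF4 cells in DMSO and in Sorafenib 6.59 and 6.55 CPM in siCtrl, 6.46 and 6.29 CPM in siY/T and 1.06 and 1.18 CPM in siATF4 cells. COL9A3 was lowered by siATF4 (log2 change -1.88 and -2.13, limma adjusted p = 1.56e-09 and 3.64e-10) and changed little with siY/T (0.25 and -0.041). COL21A1 measured 56.5 and 56.3 CPM in siCtrl, 104 and 134 CPM in siY/T and 18.8 and 19.2 CPM in siATF4 cells in DMSO. In Sorafenib COL21A1 measured 105 and 102 CPM in siCtrl, 196 and 213 CPM in siY/T and 60.3 and 58.3 CPM in siATF4 cells. All 3 interventions moved COL21A1, siATF4 down and siY/T and Sorafenib up, without overlap between the groups compared. Against siCtrl, siY/T raised COL21A1 2.09-fold in DMSO and 1.96-fold in Sorafenib (limma adjusted p = 3.29e-07 and 1.12e-06), and siATF4 lowered it 2.92-fold and 1.75-fold. COL12A1, a chain of dense connective tissue, had log2 changes from -0.45 to 0.39 and was not called.

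Of the 4 basement membrane chains, siATF4 lowered 3 in DMSO, all but COL4A2. COL4A1 measured 77.5 and 73.1 CPM in siCtrl, 58.01 and 55.5 CPM in siY/T and 47.01 and 46.8 CPM in siATF4 cells in DMSO. In Sorafenib COL4A1 measured 84.8 and 86.7 CPM in siCtrl, 80.8 and 76.7 CPM in siY/T and 67.8 and 70.8 CPM in siATF4 cells. The siATF4 libraries lay below siCtrl in both media, by a log2 change of -0.68 in DMSO (SE 0.0491, limma adjusted p = 6.69e-08) and -0.31 in Sorafenib, the second short of the threshold. COL4A2, its partner in the type IV triple helix, measured 5.41 and 5.79 CPM in siCtrl, 3.78 and 3.12 CPM in siY/T and 4.76 and 4.496 CPM in siATF4 cells in DMSO and in Sorafenib 5.73 and 6.04 CPM in siCtrl, 5.61 and 5.05 CPM in siY/T and 5.86 and 5.69 CPM in siATF4 cells. COL4A2 fell with siY/T in DMSO (log2 change -0.63, limma adjusted p = 0.000107), and with siATF4 its changes were -0.25 and -0.024. COL4A5, a chain of specialised basement membranes, measured 45.6 and 41.7 CPM in siCtrl, 46.2 and 47.5 CPM in siY/T and 14.7 and 15.9 CPM in siATF4 cells in DMSO. In Sorafenib COL4A5 measured 72.2 and 72.8 CPM in siCtrl, 74.3 and 75.8 CPM in siY/T and 36.3 and 35.9 CPM in siATF4 cells. COL4A5 was lowest in siATF4 cells and about level between siCtrl and siY/T cells in each medium. Its log2 changes with siATF4 were -1.48 and -0.995 (limma adjusted p = 1.62e-10 and 4.08e-09). COL4A6 had mean levels of 2.92 ± 0.0148 CPM in siCtrl, 1.07 ± 0.0545 CPM in siY/T and 0.857 ± 0.0914 CPM in siATF4 DMSO cells (mean ± SD, n = 2). It was lowered by siY/T (-1.12 and -0.84) and by siATF4 (-1.33 and -1.31), in DMSO and in Sorafenib.

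Type VI collagen forms beaded filaments close to the cell. COL6A1 measured 266 and 229 CPM in siCtrl, 301 and 259.6 CPM in siY/T and 366 and 318 CPM in siATF4 cells in DMSO. In Sorafenib COL6A1 measured 288 and 298 CPM in siCtrl, 292 and 278 CPM in siY/T and 303 and 306 CPM in siATF4 cells. COL6A2 measured 252 and 225 CPM in siCtrl, 330.2 and 298 CPM in siY/T and 350.2 and 325 CPM in siATF4 cells in DMSO and in Sorafenib 275 and 290.2 CPM in siCtrl, 322 and 316 CPM in siY/T and 286 and 292 CPM in siATF4 cells. Both chains were higher in every siATF4 than in every siCtrl library in DMSO and close to siCtrl in Sorafenib. The log2 changes with siATF4 in DMSO were 0.47 (SE 0.0813) and 0.50 (SE 0.0611), below the threshold of 0.58 although their limma adjusted p were 0.000206 and 8.65e-06. In Sorafenib they were 0.056 and 0.034.

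COL7A1, the anchoring fibril chain of skin, measured 3.88 and 3.44 CPM in siCtrl, 5.01 and 5.19 CPM in siY/T and 1.41 and 1.15 CPM in siATF4 cells in DMSO. In Sorafenib COL7A1 measured 5.56 and 6.11 CPM in siCtrl, 4.17 and 4.79 CPM in siY/T and 1.44 and 1.26 CPM in siATF4 cells. The siATF4 libraries lay below the others in each medium (log2 change -1.23 and -1.77, limma adjusted p = 5.64e-07 and 1.15e-08). COL18A1, the proteoglycan core whose end fragment is endostatin, measured 1082 and 966 CPM in siCtrl, 1525 and 1455 CPM in siY/T and 800.2 and 755 CPM in siATF4 cells in DMSO. In Sorafenib COL18A1 measured 1804 and 1888 CPM in siCtrl, 1899 and 1879.9 CPM in siY/T and 1193 and 1237 CPM in siATF4 cells. Sorafenib raised COL18A1 1.804-fold (log2 change 0.85, SE 0.0548, limma adjusted p = 4.9e-08), and siATF4 changed it by -0.396 in DMSO and -0.603 in Sorafenib. COL17A1, of hemidesmosomes, had means of 1.95 ± 0.00936, 0.947 ± 0.178 and 2.67 ± 0.163 CPM in siCtrl, siY/T and siATF4 DMSO cells (mean ± SD, n = 2) and of 1.27 ± 0.206, 0.701 ± 0.0983 and 2.996 ± 0.000422 CPM in Sorafenib. It was the only chain raised by siATF4, in Sorafenib (log2 change 0.99, limma adjusted p = 9.39e-06). COL8A1, a network chain of vessels, had means of 3.72 ± 0.112 CPM in siCtrl and 1.38 ± 0.199 CPM in siATF4 DMSO cells and was lowered by siATF4 in both media (-1.17 and -1.07).

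Among the proteins that fold and modify the chains, SERPINH1 was raised by siY/T. SERPINH1 measured 161 and 146 CPM in siCtrl, 330.1 and 299 CPM in siY/T and 178 and 179.5 CPM in siATF4 cells in DMSO. In Sorafenib SERPINH1 measured 167 and 165 CPM in siCtrl, 285 and 284 CPM in siY/T and 160.3 and 165 CPM in siATF4 cells. The siY/T libraries were the highest of each medium, and siATF4 and siCtrl libraries were close. The increase with siY/T was 2.05-fold in DMSO (log2 change 1.03, SE 0.0525, limma adjusted p = 8.87e-09) and 1.71-fold in Sorafenib (adjusted p = 1.36e-07). PLOD2, the lysyl hydroxylase of the telopeptides, where cross-links form, measured 151 and 154 CPM in siCtrl, 63.98 and 77.8 CPM in siY/T and 202 and 208 CPM in siATF4 cells in DMSO. In Sorafenib PLOD2 measured 107 and 95.4 CPM in siCtrl, 86.4 and 79.7 CPM in siY/T and 118 and 110.1 CPM in siATF4 cells. PLOD2 was lowest in siY/T DMSO libraries, and Sorafenib lowered it in siCtrl cells. The log2 change was -1.103 with siY/T in DMSO (SE 0.0813, limma adjusted p = 1.69e-07), -0.29 with siY/T in Sorafenib and -0.59 with Sorafenib. PLOD1, which hydroxylates helical lysines, had means of 131 ± 1.22 CPM in siCtrl and 201 ± 6.49 CPM in siY/T DMSO cells (log2 change 0.61). PLOD3 had log2 changes between -0.062 and 0.37 and was not called. P4HA2 and P4HA3, catalytic subunits of prolyl 4-hydroxylase, had log2 changes from -0.53 to 0.29 against siCtrl or with Sorafenib and were not called. The lowest was that of P4HA3 with siY/T in Sorafenib, which edgeR and DESeq2 called as lowered (-0.65 with each).

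The LOX family was split. LOX measured 8.28 and 7.39 CPM in siCtrl, 2.73 and 2.898 CPM in siY/T and 18.99 and 16.95 CPM in siATF4 cells in DMSO. In Sorafenib LOX measured 7.78 and 7.94 CPM in siCtrl, 2.76 and 2.34 CPM in siY/T and 18.1 and 19.2 CPM in siATF4 cells. LOX was highest with siATF4 and lowest with siY/T in both media, with no overlap between any of the 3 siRNA groups. It rose 2.22-fold and 2.29-fold with siATF4 (limma adjusted p = 1.92e-07 and 9.2e-08) and fell 2.51-fold and 2.75-fold with siY/T (adjusted p = 1.13e-07 and 8.28e-08). LOXL1, better known for elastic fibres, measured 12.9 and 11.4 CPM in siCtrl, 24.8 and 24.1 CPM in siY/T and 2.68 and 2.61 CPM in siATF4 cells in DMSO. In Sorafenib LOXL1 measured 38.6 and 40.1 CPM in siCtrl, 45.1 and 51.5 CPM in siY/T and 6.64 and 6.59 CPM in siATF4 cells. The LOXL1 order was the opposite of that of LOX, siATF4 being lowest and siY/T highest. Its log2 changes were -2.01 and -2.48 with siATF4 (limma adjusted p = 1.93e-10 and 3.59e-11), 0.98 with siY/T in DMSO and 1.66 with Sorafenib, the largest Sorafenib rise among the members. An opposite-strand gene, LOXL1-AS1, shares 9.89% of the LOXL1 transcript and measured 1.54 to 6.79 CPM. LOXL4 measured 3.805 and 4.13 CPM in siCtrl, 6.32 and 7.41 CPM in siY/T and 1.14 and 1.15 CPM in siATF4 cells in DMSO. In Sorafenib LOXL4 measured 10.5 and 9.46 CPM in siCtrl, 8.32 and 9.59 CPM in siY/T and 1.99 and 2.12 CPM in siATF4 cells. Like LOXL1, LOXL4 was lowest in siATF4 cells and raised by Sorafenib. The log2 changes were -1.44 and -2.03 with siATF4 (limma adjusted p = 6.15e-08 and 1.59e-09), 0.72 with siY/T in DMSO and 1.23 with Sorafenib. LOXL2, the most abundant oxidase per kilobase, had means of 500.0 ± 26.00 CPM in siCtrl, 647 ± 12.5 CPM in siY/T and 279 ± 4.91 CPM in siATF4 DMSO cells (mean ± SD, n = 2), and siATF4 changed it by -0.84 in DMSO and -0.72 in Sorafenib.

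Of the genes that trim procollagen, ADAMTS2, which removes the amino-terminal piece, measured 80.9 and 73.2 CPM in siCtrl, 50.5 and 48.7 CPM in siY/T and 27.7 and 28.9 CPM in siATF4 cells in DMSO. In Sorafenib ADAMTS2 measured 147 and 145 CPM in siCtrl, 68.5 and 66.96 CPM in siY/T and 58.2 and 58.9 CPM in siATF4 cells. Both knockdowns lay below siCtrl in both media, siATF4 further. The log2 changes were -1.43 and -1.31 with siATF4 (limma adjusted p = 1.18e-10 and 1.76e-10), -0.63 and -1.102 with siY/T, and 0.92 with Sorafenib. BMP1, the carboxy-terminal proteinase, measured 29.4 and 26.03 CPM in siCtrl, 50.3 and 46.7 CPM in siY/T and 25.3 and 25.1 CPM in siATF4 cells in DMSO. In Sorafenib BMP1 measured 48.97 and 51.6 CPM in siCtrl, 54.3 and 57.7 CPM in siY/T and 28.9 and 30.6 CPM in siATF4 cells. BMP1 was high in siY/T DMSO, siCtrl Sorafenib and siY/T Sorafenib cells and low in the other 3 groups. Its log2 change was 0.85 with Sorafenib (SE 0.0666, limma adjusted p = 2.52e-07), 0.796 with siY/T in DMSO and -0.75 with siATF4 in Sorafenib. PCOLCE, which enhances BMP1, was raised by both knockdowns in DMSO (0.63 with siATF4 and 0.62 with siY/T), from 3.29 ± 0.0696 CPM in siCtrl to 5.39 ± 0.475 and 5.33 ± 0.266 CPM (mean ± SD, n = 2). PCOLCE-AS1 overlaps 28.8% of its transcript on the other strand and did not pass 0.024 CPM.

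**Figure D3:**
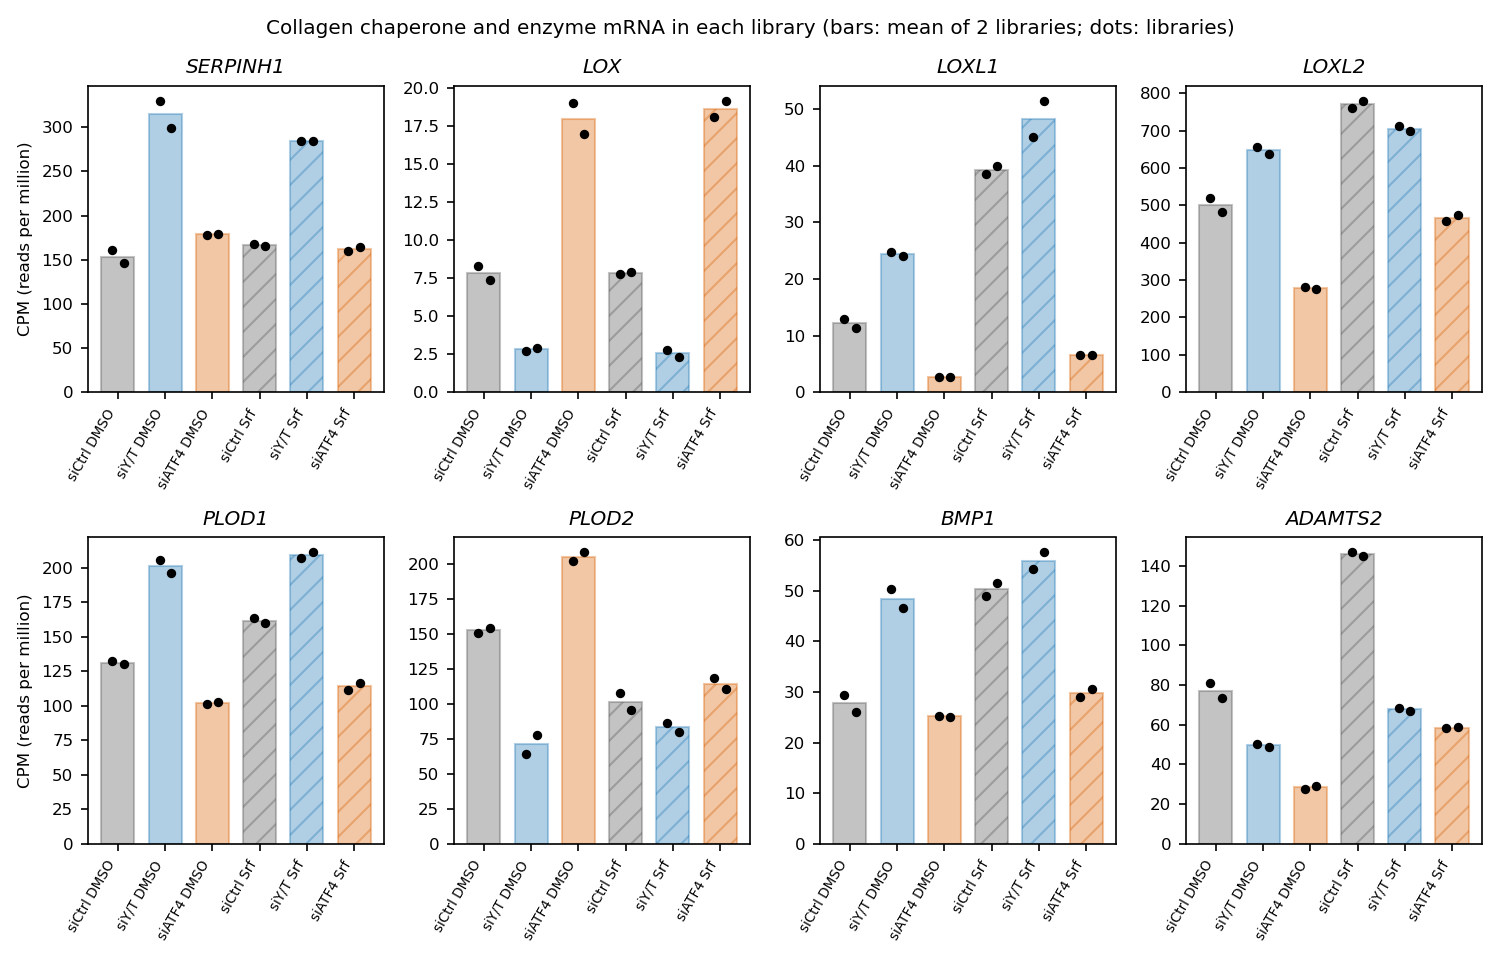
CPM of 8 enzymes and helpers on linear axes from 0, with a bar for the mean of the 2 libraries of each group, a dot for each library and hatched bars for Sorafenib (Srf). LOX is highest with siATF4 and lowest with siY/T, LOXL1 is lowest with siATF4, and SERPINH1 is highest with siY/T, by log2 changes of 1.03 in DMSO and 0.77 in Sorafenib.

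Set directly against each other, siY/T and siATF4 cells differed at most members. In DMSO 21 members were higher and 3 lower in siY/T than in siATF4 cells, or 60% and 8.57% of the members against 22.7% and 13% of all genes tested (35.7% in either direction), with a median log2 difference of 0.93 against 0.059. In Sorafenib 20 were higher and 3 lower, or 57.1% and 8.57% against 23.7% and 14.8% (38.5% in either direction), with a median of 0.81 against 0.058. All 6 called fibrillar chains in DMSO and all 7 in Sorafenib were higher in siY/T cells, the largest difference being that of COL3A1 (3.36 and 3.296, limma adjusted p = 5.96e-13 and 1.02e-12). LOX (-2.48 and -2.65) and COL17A1 (-1.14 and -1.54) were lower in siY/T cells in both media, joined by PLOD2 in DMSO (-1.53) and P4HA3 in Sorafenib (-0.69). P4HA2 in DMSO was lost without siY/T DMSO replicate 1 (0.54) or siATF4 DMSO replicate 2 (0.52), and LOXL2 in Sorafenib without siATF4 Sorafenib replicate 1 (0.57). COL27A1 entered in DMSO without siATF4 DMSO replicate 1 (0.58), and in Sorafenib COL4A6 (0.69) and PCOLCE (0.65) entered without siY/T Sorafenib replicate 1 and PCOLCE (0.61) without siATF4 Sorafenib replicate 1. Of all genes called, the lowered share was 36.3% in DMSO and 38.5% in Sorafenib as reported, and 51.6% and 51.5% with quantile normalization.

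Whether each knockdown acted differently in Sorafenib than in DMSO was tested as a difference of log2 changes, with a limma adjusted p under 0.05 as the call and no limit on size. For siY/T, 19 members differed, 15 downwards and 4 upwards (42.9% and 11.4% of the members against 14.2% and 7.81% of all genes tested, 22% in either direction). That background moved with 1 library, from 2978 called genes to 1581 without siCtrl DMSO replicate 2, 1623 without siCtrl Sorafenib replicate 2, 1949 without siY/T Sorafenib replicate 1 and 4575 without siY/T DMSO replicate 2. The 4 upward ones were COL4A1, COL4A2, COL12A1 and PLOD2, and the PLOD2 difference was 0.82 (SE 0.115, adjusted p = 0.000561). The largest downward differences were those of LOXL4 (-0.87), P4HA3 (-0.82), COL7A1 (-0.78) and LOXL1 (-0.69). For COL7A1 the log2 change with siY/T was 0.43 in DMSO and -0.35 in Sorafenib, and for BMP1 it was 0.796 and 0.15. For siATF4, 17 members differed, 12 downwards and 5 upwards (34.3% and 14.3% against 21.8% and 19.3% of all genes, 41.1% in either direction). The largest were those of PCOLCE (-0.96), COL27A1 (-0.84) and, upwards, COL21A1 (0.74). COL3A1, COL5A1 and COL5A2, all lowered in both media, had differences of -0.028, -0.078 and 0.035 and were not called. Without some library, 6 of the 19 and 8 of the 17 calls were lost, and the genes and values are given among the additional observations. Of all genes called for siATF4, the lowered share was 53%, and 45.5% with TMM scaling.

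**Figure D4:**
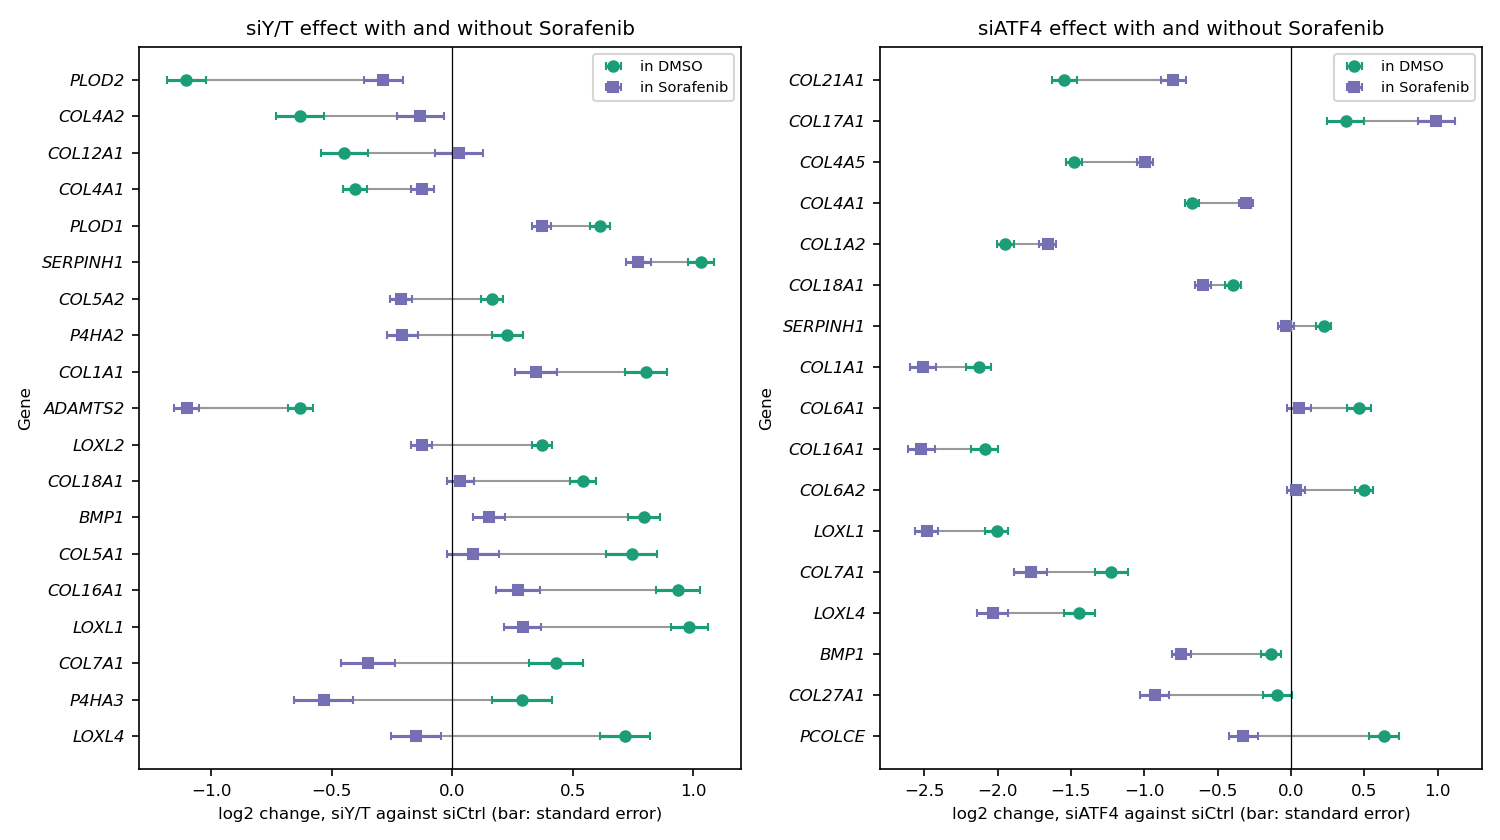
Log2 change against siCtrl of the members whose change differed between the media, 19 for siY/T on the left and 17 for siATF4 on the right, as a circle in DMSO and a square in Sorafenib with the standard error as a bar. For siY/T the PLOD2 square (-0.29) lies nearer 0 than its circle (-1.10), and for siATF4 the PCOLCE circle (0.63) and square (-0.33) lie on opposite sides of 0.

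Chains that assemble together did not move in a fixed ratio. Per kilobase, the ratio of COL1A2 to COL1A1 was 22.5 ± 2.05 in siCtrl DMSO cells (mean ± SD, n = 2), 27.1 ± 1.93 in siATF4 DMSO cells and 43.02 ± 0.649 in siATF4 Sorafenib cells, against 22.6 ± 1.07 in siCtrl Sorafenib cells. The triple helix of type I collagen usually holds more COL1A1 than COL1A2 chains, and at the RNA level the order in these cells was the other way round. COL5A2 to COL5A1 was 49.7 ± 6.12 in siCtrl and 31.7 ± 0.576 in siY/T DMSO cells and 28.3 ± 3.79 in siCtrl Sorafenib cells. COL4A1 to COL4A2 ran from 9.996 ± 0.361 in siATF4 DMSO to 16.3 ± 1.73 in siY/T DMSO cells, and COL4A5 to COL4A6 from 15.3 ± 0.905 in siCtrl DMSO to 44.7 ± 1.39 in siY/T DMSO cells. COL6A1 to COL6A2 stayed closest, between 0.7301 ± 0.0241 and 0.863 ± 0.00556 in the 6 groups. These ratios are descriptions without a test. Summed over the 22 chains, the cells held 2705 ± 150.5 CPM in siCtrl, 3747 ± 76.9 CPM in siY/T and 1921 ± 80.04 CPM in siATF4 DMSO cells (mean ± SD, n = 2), and 4093 ± 74.1, 4666 ± 45.6 and 2553 ± 18.7 CPM in Sorafenib. The fibrillar chains took 30.3%, 34.3% and 11.1% of that sum in DMSO and 28.0%, 33.2% and 13.4% in Sorafenib, in the same order of siRNA, and COL18A1 took 37.9% to 47.6%.

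**Figure D5:**
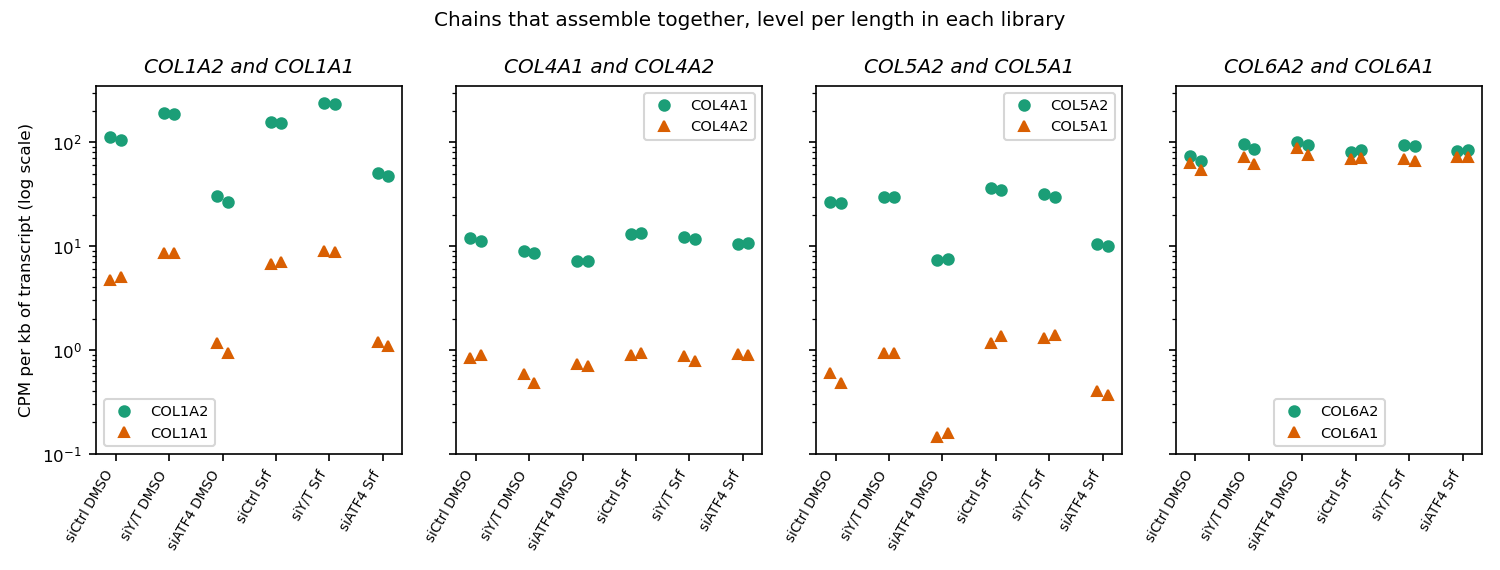
CPM per kilobase of transcript of 4 pairs of chains on a logarithmic vertical axis, with the 6 groups along the horizontal axis and a circle or a triangle for each chain in each library. Both chains of types I and V are lowest with siATF4 in each medium, and COL6A1 and COL6A2 lie close together in all groups, at ratios of 0.73 to 0.86.

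The wider collagen pathway was read from lists of partner genes, here and in the next paragraph. Over all genes tested, siATF4 lowered 14.1% in DMSO and 18.7% in Sorafenib and raised 8.56% and 10.3%. For siY/T these shares were 3.61% and 3.84% lowered and 11% and 6.11% raised. Sorafenib in siCtrl cells lowered 5.15% and raised 12.3%. With lists this short, 1 call is not read as a result about the list. Of 15 genes of modification and folding in the endoplasmic reticulum, siATF4 lowered 1 in DMSO (P3H3, a prolyl 3-hydroxylase, -0.71; -0.51 in Sorafenib, not called), while siY/T raised FKBP10 (0.72 and 0.62) and lowered COLGALT2 (-1.19 and -1.29). Of 12 genes of procollagen export, CREB3L1, a transcription factor that activates type I collagen, was lowered in Sorafenib by siATF4 (-0.82) and by siY/T (-0.78). Its changes in DMSO, -0.38 and -0.31, were not called. CREB3L1 lay near the filter, at 0.673 to 1.96 CPM over all libraries. Of 4 other propeptide proteinases tested among 6, siATF4 lowered 2 in DMSO and 1 in Sorafenib and siY/T raised 1 in each medium. Lowered by siATF4 were FURIN (-0.66 and -0.79) and, in DMSO, ADAMTS3 (-0.63), and raised by siY/T was TLL1 (0.64 and 1.42). TLL1 was low, in Sorafenib at 0.161 and 0.244 CPM in siCtrl and 1.498 and 1.26 CPM in siY/T libraries. It reached 1 CPM in the siY/T Sorafenib libraries only and so passed the filter through that group. Its rise in Sorafenib is therefore partly built into the selection.

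Of 7 collagen receptors tested among 8, siATF4 lowered 4 and raised 1 in DMSO and lowered 5 in Sorafenib, where 14.1%, 8.56% and 18.7% of all genes tested were so called. The raised one was ITGA10, at 0.765 and 0.799 CPM in siCtrl and 2.08 and 2.10 CPM in siATF4 DMSO libraries. Outside siATF4, ITGA10 reached 1 CPM only in siCtrl Sorafenib replicate 2 (1.04 CPM). It passed the filter through siATF4 libraries, so its rise is partly built into the selection. The lowered ones include the discoidin receptors DDR1 (-1.17 and -0.903) and DDR2 (-1.09 and -1.17) and the collagen uptake receptor MRC2 (-1.099 and -1.505). In DMSO, siY/T raised 4 of the 7 (11% of all genes tested), with log2 changes of 0.66 for DDR1, 0.66 for DDR2 and 0.67 for MRC2. Sorafenib raised DDR2 (1.07) and MRC2 (0.66). Of 7 fibril-binding matrix proteins tested among 13, siATF4 lowered 2 in DMSO and lowered 3 and raised 1 in Sorafenib, and siY/T lowered 1 and raised 1 in DMSO and lowered 1 in Sorafenib. Among them siATF4 lowered FN1 (-1.36 and -0.89) and THBS1 (-1.96 and -0.91) and raised POSTN in Sorafenib (1.101), while siY/T raised TNC in DMSO (1.03) and lowered POSTN (-1.81 and -1.33). Among 4 genes of collagen breakdown tested of 8, siATF4 lowered 2 and raised 1 in each medium, siY/T lowered 1 and raised 1 in DMSO and lowered 1 in Sorafenib, and Sorafenib lowered 1 and raised 1. The membrane collagenase MMP14 was lowered by siATF4 (-0.76 and -1.55) and raised by siY/T in DMSO (0.59) and by Sorafenib (0.62), and the protease FAP was lowered by siATF4 (-1.44 and -1.18). MMP1, an interstitial collagenase, rose with siATF4 (2.91 and 2.98) and fell with Sorafenib (-2.06) and siY/T (-0.70 and -0.63).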

How the data were processed

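Poly(A) RNA of HLE cells was sequenced in 12 libraries, 2 in each of 6 groups taken from the labels, and 0 columns were left unmapped. The authors aligned reads to hg19 with STAR, kept unique hits, used QuasR to count them over RefSeq mRNA exons and deposited CPM for 26258 Entrez identifiers, without a factor beyond the library total; the STAR version and the strand setting are not given in the sources used here. In each library 100% of values were whole multiples of 1 read within 0.001 read, so whole reads were recovered for count tests. A RefSeq table named 26111 identifiers.

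The 13515 genes reaching 1 CPM in 2 or more libraries were fitted with limma 3.58.1 (trend, R 4.3.3) on log2(CPM + 0.5), with 1 coefficient per group over all 12 libraries, 9 comparisons and Benjamini-Hochberg adjustment over all genes of a comparison. A call needed an adjusted p under 0.05 and a log2 change of at least 0.58; differences of effects needed the first only. Alternatives were pseudocounts of 0.1 and 1, no filter, TMM scaling, quantile normalization, the replicate block, the compared groups alone, edgeR 4.0.16 and DESeq2 1.42.0 on recovered reads, unadjusted p and leaving out each library. Scripts were tested on simulated data and run in Python 3.11.15 with numpy 2.4.6, pandas 2.3.3 and matplotlib 3.10.9.

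Library values are given for members called in at least 1 of the 5 comparisons with siCtrl and averaging at least 5 CPM in a group, up to the 20 with the largest changes, plus the chains of types I, IV, V and VI; each partner list is given by counts and at most 3 called genes a comparison, except 1 list that is not reported here. The members and lists were chosen with earlier results of these data known. Levels per kilobase use the main GENCODE transcript on GRCh37. Promoter letters come from RefSeq (GRCh38.p14), for which no coordinates were mixed with hg19.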

Additional observations from a re-analysis of the deposited data

Results flagged for a closer look

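Effects of a knockdown that differed between Sorafenib and DMSO were found for 36 pairs of a gene and a knockdown, each by the limma test of the difference of log2 changes (adjusted p under 0.05 over 13515 genes). Groups of 2 libraries are too small to look for a library far from the others. For siY/T, the log2 change was lower in Sorafenib than in DMSO by these differences: LOXL4 (-0.87), P4HA3 (-0.82), COL7A1 (-0.78), LOXL1 (-0.69), COL16A1 (-0.66), COL5A1 (-0.66), BMP1 (-0.64), COL18A1 (-0.51), LOXL2 (-0.50), ADAMTS2 (-0.47), COL1A1 (-0.46), P4HA2 (-0.44), COL5A2 (-0.38), SERPINH1 (-0.26) and PLOD1 (-0.24). It was higher in Sorafenib for PLOD2 (0.82), COL4A2 (0.499), COL12A1 (0.47) and COL4A1 (0.28). SERPINH1, COL1A2 and COL21A1 were raised and LOX, COL4A6 and ADAMTS2 lowered by siY/T in both media, whereas COL5A2, COL7A1, COL12A1, LOXL2, LOXL4, P4HA2 and P4HA3 had changes of opposite sign in the 2 media. Of these changes of opposite sign, only that of LOXL4 in DMSO was itself called against siCtrl.

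For siATF4, the log2 change was lower in Sorafenib for PCOLCE (-0.96), COL27A1 (-0.84), BMP1 (-0.61), LOXL4 (-0.59), COL7A1 (-0.55), LOXL1 (-0.48), COL6A2 (-0.47), COL16A1 (-0.43), COL6A1 (-0.41), COL1A1 (-0.38), SERPINH1 (-0.26) and COL18A1 (-0.21). It was higher in Sorafenib for COL21A1 (0.74), COL17A1 (0.62), COL4A5 (0.48), COL4A1 (0.37) and COL1A2 (0.29). COL1A1, COL7A1, COL16A1, LOXL1 and LOXL4, lowered in both media, lay further below siCtrl in Sorafenib, and COL1A2, COL4A5 and COL21A1 less far. The background for these counts is 22% of all tested genes for siY/T, 1581 to 4575 genes against 2978 when 1 library is left out, and 41.1% for siATF4.

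Leaving out 1 library at a time, 13 of the 19 siY/T differences and 9 of the 17 siATF4 differences were called in every such fit. Those lost, with the library left out (group and replicate number) and the difference then fitted, are given next. For siY/T, COL12A1 was lost without siCtrl DMSO 1 (0.51), siCtrl DMSO 2 (0.44), siCtrl Sorafenib 1 (0.44), siCtrl Sorafenib 2 (0.51), siY/T Sorafenib 1 (0.47) or siY/T Sorafenib 2 (0.48). COL1A1 was lost without siCtrl DMSO 1 (-0.402), siCtrl Sorafenib 2 (-0.42), siY/T Sorafenib 1 (-0.47) or siY/T Sorafenib 2 (-0.44). COL4A1 was lost without siCtrl DMSO 1 (0.24) or siY/T Sorafenib 1 (0.24). COL4A2 was lost without siCtrl DMSO 2 (0.45), siY/T DMSO 2 (0.38), siCtrl Sorafenib 1 (0.46), siCtrl Sorafenib 2 (0.53) or siY/T Sorafenib 1 (0.43). PLOD1 was lost without siCtrl DMSO 2 (-0.23). SERPINH1 was lost without siCtrl DMSO 2 (-0.19), siCtrl Sorafenib 1 (-0.25), siCtrl Sorafenib 2 (-0.27), siY/T Sorafenib 1 (-0.26) or siY/T Sorafenib 2 (-0.26). For siATF4, COL16A1 was lost without siCtrl DMSO 2 (-0.37), siATF4 DMSO 1 (-0.396), siCtrl Sorafenib 2 (-0.38) or siATF4 Sorafenib 1 (-0.41). COL17A1 was lost without siATF4 DMSO 2 (0.57) or siCtrl Sorafenib 2 (0.498). COL18A1 was lost without siCtrl DMSO 2 (-0.12), siATF4 DMSO 1 (-0.16), siCtrl Sorafenib 1 (-0.24), siCtrl Sorafenib 2 (-0.17), siATF4 Sorafenib 1 (-0.18) or siATF4 Sorafenib 2 (-0.23). COL1A1 was lost without siCtrl DMSO 1 (-0.32), siATF4 DMSO 1 (-0.22), siCtrl Sorafenib 2 (-0.34) or siATF4 Sorafenib 2 (-0.32). COL1A2 was lost without siCtrl DMSO 1 (0.25), siATF4 DMSO 2 (0.19) or siATF4 Sorafenib 1 (0.25). COL6A1 was lost without siCtrl DMSO 2 (-0.301) or siATF4 DMSO 1 (-0.31). COL7A1 was lost without siCtrl DMSO 2 (-0.47), siATF4 DMSO 1 (-0.44), siCtrl Sorafenib 2 (-0.49) or siATF4 Sorafenib 2 (-0.48). SERPINH1 was lost without siCtrl DMSO 2 (-0.19) or siATF4 Sorafenib 1 (-0.24). The smallest of them, COL18A1 for siATF4, was lost without any of 6 libraries, and COL12A1 for siY/T likewise. LOXL1 and LOXL4 for siATF4 held in all of these fits and were lost with edgeR (-0.37 and -0.49) and DESeq2 (-0.36 and -0.48) on the recovered reads. COL16A1 (-0.37 and -0.36) and COL18A1 (-0.20 and -0.20) for siATF4 were also lost with edgeR and DESeq2. With DESeq2, COL7A1 (-0.58) and COL17A1 (0.80) for siATF4 and COL4A2 (0.57) for siY/T were lost too.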

How the results depend on the processing

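No direction of a called value turned under any alternative run. Of 163 called gene and comparison pairs of the members, 125 were called in every alternative and 38 were lost in at least 1, and of 152 not called, 27 were gained in at least 1. Of 134 recomputed counts of called members, 132 lay within 1.5 times the reported count, and both others were the siATF4 difference between Sorafenib and DMSO, 17 as reported, 11 without a filter on low values and 11 with DESeq2; the cause was not tested. Leaving out 1 library at a time, the counts ran from 15 to 17 for siY/T in DMSO, 7 to 9 for siY/T in Sorafenib, 19 to 21 for siATF4 in DMSO, 21 to 22 for siATF4 in Sorafenib, 10 to 15 for Sorafenib, 23 to 25 for siY/T against siATF4 in both media, 14 to 23 for the siY/T difference and 12 to 16 for the siATF4 difference. In these fits a group left with 1 library was assumed to vary like the others. With the replicate number as a block the counts were 17, 7, 20, 22, 14, 24, 23, 19 and 16, against 17, 7, 20, 22, 14, 24, 23, 19 and 17 without it, COL18A1 for the siATF4 difference being the call lost. The numbers share no stated origin, and over 15 pairs of groups the correlation of same-numbered deviations ran from -0.282 to 0.193, with 4 over 0.1, so the block was not used. Over all genes, the share of siATF4 difference calls that were lowered was 53% as reported and 45.5% with TMM scaling. For siY/T against siATF4, quantile normalization moved the median log2 difference of all genes from 0.059 to -0.066 in DMSO and from 0.058 to -0.066 in Sorafenib. In the other comparisons no scaling moved it by more than 0.1. With 2 libraries a group, changes near the threshold of 0.58 are the ones that depth and spread leave uncertain.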
